A study of Mus musculus with 6 samples.

Results

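The cytochromes P450 of families 1 to 4 were examined in the liver of 21-day-old mice, the weaning age, with and without the acyl-CoA binding protein ACBP. The set held every gene whose symbol starts with Cyp1, Cyp2, Cyp3 or Cyp4 followed by a letter, and it came to 56 of the 18193 genes with probe sets of a single symbol on the array. Each gene was represented by its brightest probe set over the 6 arrays, of 69 probe sets in all. Another 4 probe sets that list several of these genes were left out, because their signal cannot be given to one gene.

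Mice of genotype ACBP-/- (here KO), which lack the protein encoded by Dbi, were set against +/+ mice (WT), all of strain C57BL/6JBomTac. The mice were in the fed state and had been with their mother until the morning of the dissection, and no agent was given. Liver RNA of 5 mice was combined in equal amounts for each array, so 3 KO pools and 3 WT pools stand for 15 mice per genotype, and the spread between arrays is that of pools of different mice. The labels give neither the sex of the mice nor a restriction of the mutation to the liver.

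P450 enzymes of families 1 to 4 are heme proteins of the endoplasmic reticulum that insert 1 oxygen atom into lipophilic substrates with electrons from P450 reductase and cytochrome b5. Many are induced by what they metabolise: ligands of the Ah receptor raise Cyp1a genes, those of the nuclear receptor CAR raise Cyp2b genes, those of PXR raise Cyp3a genes, and fatty acids and fibrates acting on PPAR alpha raise Cyp4a genes. Family 2 and 3 enzymes handle drugs, steroids and bile acids, several Cyp2c and Cyp2j enzymes epoxidise arachidonic acid, and Cyp4 enzymes hydroxylate the end of fatty acid chains. ACBP binds long-chain acyl-CoA esters in the cytosol.

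Values are deposited log2 signals of an Affymetrix expression array, and differences are KO minus WT on the log2 scale with the standard error (SE) of limma's moderated fit. A gene was tested if MAS5 called its probe set Present on at least 3 of the 6 arrays, and called changed at an adjusted p below 0.05 over all 22482 tested probe sets. Dbi read 5.37, 5.32 and 5.15 in KO pools 1 to 3 and 15.94, 15.74 and 15.77 in WT pools 1 to 3, a difference of -10.54 with an SE of 0.0775, and its other 3 probe sets were also lower in KO. The arrays called 48.4% to 51.1% of probe sets Present. The signal ratio of the 3' to the 5' actin control was 2.34 to 2.35 on the KO arrays and 2.18 to 2.19 on the WT arrays, a measure of RNA or labelling quality that followed genotype, and its part in the results was not tested. The same ratio of the Gapdh control overlapped between genotypes, at 0.906 to 0.909 on the KO arrays and 0.874 to 0.916 on the WT arrays. Of the hepatocyte markers, 0 of 8 tested were called changed by limma, 0 had an unadjusted p below 0.05, and their median difference was -0.01. Summed linear signals of the stellate cell markers were 9759 to 10435 in KO and 10804 to 10934 in WT, and those of the sinusoidal endothelial markers 5494 to 5806 in KO and 6050 to 6341 in WT. Cholangiocyte markers summed to 409 to 517 in KO and 651 to 841 in WT, and Kupffer cell markers to 9988 to 10135 in KO and 9582 to 10983 in WT. Of the cholangiocyte markers, Prom1 differed by -0.96 and was called, while Sox9 differed by -0.08 and Krt19 by 0.12 without a call. Krt7 and Epcam, which were not tested, differed by 0.03 and -0.08. Among all tested probe sets, 2.68% were called higher and 3.0% lower. Calls were 1 higher and 3 lower of 8 tested stellate markers, and 1 lower of 8 sinusoidal, 1 lower of 3 cholangiocyte and 1 lower of 10 Kupffer cell markers, with Des and Krt7 called Present on 0 arrays. The part of these cells in the P450 results was not tested, and in whole liver fewer cells of a type and less RNA per cell cannot be told apart.

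Some P450 genes rose and some fell in KO liver, in 8 of 19 subfamilies and mostly by small steps. Of 42 tested genes, 7 were higher in KO, namely Cyp2b13, Cyp2c29, Cyp2d22, Cyp3a13, Cyp3a25, Cyp4a14 and Cyp4f15. Another 5 were lower, namely Cyp2c23, Cyp2c68, Cyp2f2, Cyp2r1 and Cyp3a16. The 12 calls compare with 5.68% of all tested probe sets called, 2.68% of them higher and 3.0% lower. Bright probe sets were called more often: of tested probe sets with a mean log2 signal of at least 10, 14.0% were called, and 9 of the 25 P450 genes in that range were. Below a mean of 10, 4.76% of all tested probe sets and 3 of 17 P450 genes were called.

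The step between genotypes was below 1.5-fold for 11 of the 12 called genes, and Cyp3a16, at 0.48 of its WT level, was the exception. In all 12 the 3 KO pools and the 3 WT pools did not overlap, which gives an exact two-sided permutation p of 0.1, the smallest that 3 pools against 3 allow. Pools of 22 of the 42 tested genes did not overlap, KO being above WT in 15 and below in 7, while 22.4% of all tested probe sets did not overlap, 11.6% with KO above and 10.8% with KO below. The median difference was 0.11 over the 42 P450 genes and 0.02 over all tested probe sets. All 12 calls rest on limma's intensity trend, which gives bright probe sets a smaller expected variance: without it limma called 0 of the 42 genes, 13 had an unadjusted p below 0.05, and the smallest adjusted p was 0.0769. Testing every probe set without the detection filter, where 2.06% of all were called, left 6 calls, and leaving out WT pool 1 left 5, whereas leaving out KO pool 3 gave 18.

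**Figure D1:**
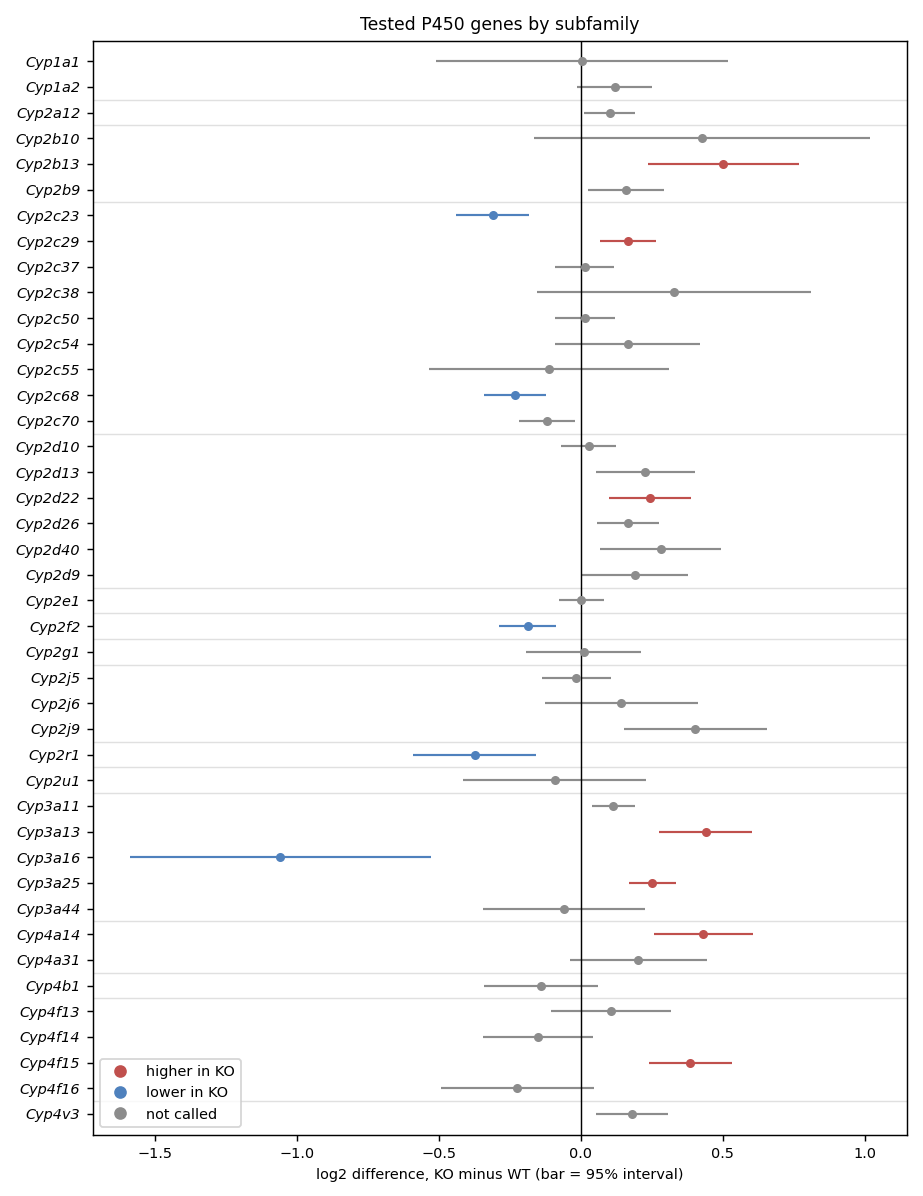
Log2 difference, KO minus WT, of the 42 tested P450 genes (x axis), 1 gene per row grouped by subfamily, with bars for the 95% interval of the moderated fit; red marks genes called higher in KO, blue those called lower and grey those not called. The intervals are narrow for bright genes such as Cyp2e1 and wide for Cyp2b10, Cyp1a1 and Cyp3a16, and Cyp3a16 stands alone at -1.06.

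**Figure D2:**
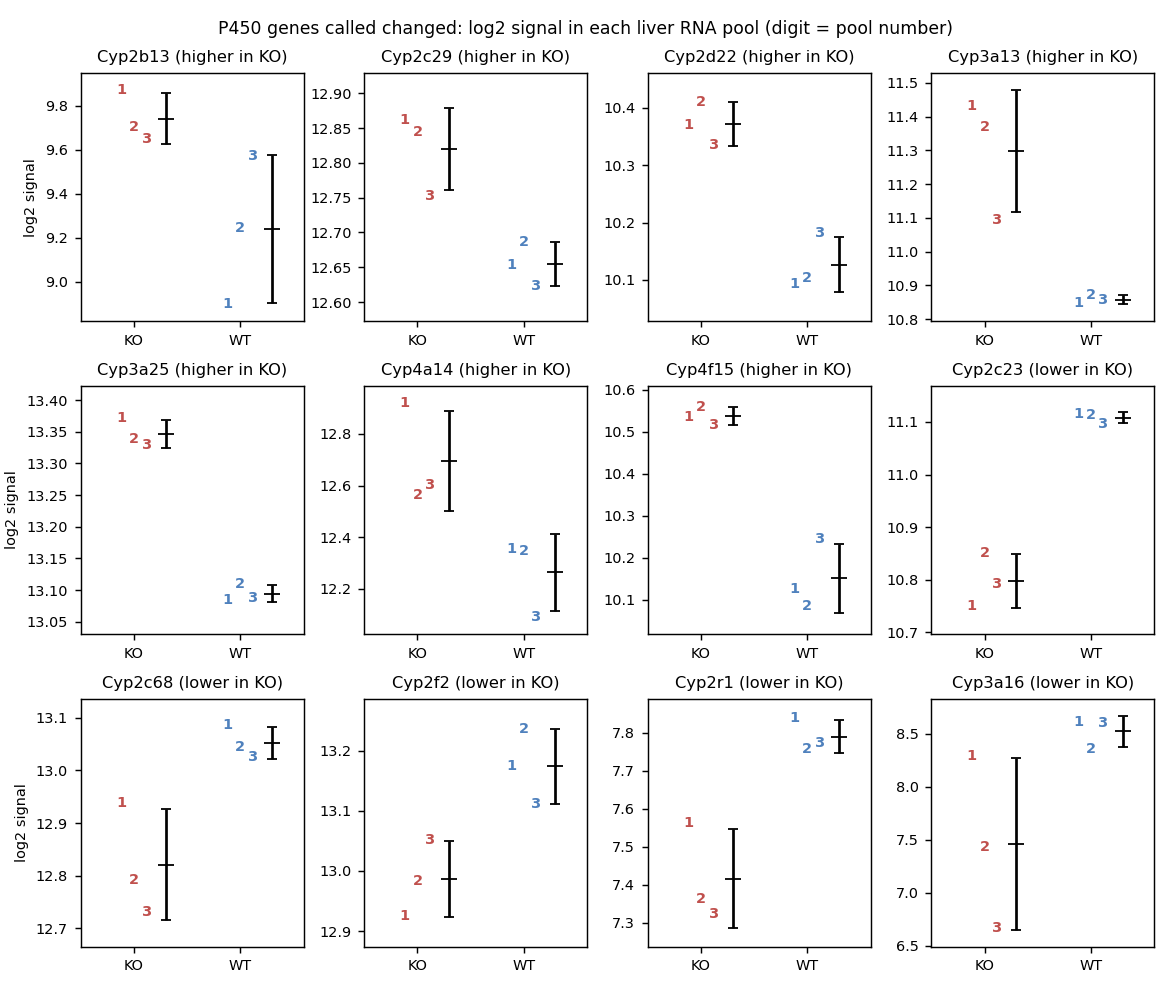
Log2 signal (y axis, a scale of its own per panel) of the 12 P450 genes called changed in KO (red, left) and WT pools (blue, right); digits are pool numbers, and the black bar is the mean with the SD of 3 pools. The genotypes do not overlap in any panel, the KO pools of Cyp3a16 spread over 1.62 log2 units, and the KO and WT pools of Cyp3a25 span 0.04 and 0.02.

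The Cyp3a subfamily held both directions. Its 5 genes on chromosome 5 (Cyp3a13, Cyp3a16, Cyp3a44, Cyp3a11 and Cyp3a25 in the order of their positions) all passed the detection filter, and 2 were higher, 1 was lower and 2 were not called. Start regions of 4 of them are shown because Cyp3a16, which was called, and Cyp3a44, which was not, are near copies there. They are RefSeq promoter windows of GRCm38.p6, 250 bases before and 50 after the start, all on the minus strand and written 5' to 3'. Capitals mark TATAAA, the nuclear receptor hexamer AGGTCA on either strand, and the direct repeat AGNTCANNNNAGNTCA.
Cyp3a16, chr5:145469674-145469973: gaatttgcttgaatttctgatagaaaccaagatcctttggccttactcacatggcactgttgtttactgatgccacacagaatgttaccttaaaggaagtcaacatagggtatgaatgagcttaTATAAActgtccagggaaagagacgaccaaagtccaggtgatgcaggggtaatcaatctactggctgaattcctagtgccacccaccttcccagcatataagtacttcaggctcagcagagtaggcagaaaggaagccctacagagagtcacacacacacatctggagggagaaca
Cyp3a44, chr5:145805825-145806124: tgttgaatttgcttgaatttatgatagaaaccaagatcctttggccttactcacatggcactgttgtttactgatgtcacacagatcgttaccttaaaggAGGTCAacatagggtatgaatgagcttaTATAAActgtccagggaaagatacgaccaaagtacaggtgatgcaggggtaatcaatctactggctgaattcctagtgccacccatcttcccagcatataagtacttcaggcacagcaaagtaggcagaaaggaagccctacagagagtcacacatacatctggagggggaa
Cyp3a11, chr5:145879805-145880104: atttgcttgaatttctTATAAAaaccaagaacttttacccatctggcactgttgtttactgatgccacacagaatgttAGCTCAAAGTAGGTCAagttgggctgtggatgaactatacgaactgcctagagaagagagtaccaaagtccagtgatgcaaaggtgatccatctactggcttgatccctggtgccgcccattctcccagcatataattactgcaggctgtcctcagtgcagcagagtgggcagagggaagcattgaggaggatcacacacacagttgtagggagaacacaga
Cyp3a25, chr5:146009568-146009867: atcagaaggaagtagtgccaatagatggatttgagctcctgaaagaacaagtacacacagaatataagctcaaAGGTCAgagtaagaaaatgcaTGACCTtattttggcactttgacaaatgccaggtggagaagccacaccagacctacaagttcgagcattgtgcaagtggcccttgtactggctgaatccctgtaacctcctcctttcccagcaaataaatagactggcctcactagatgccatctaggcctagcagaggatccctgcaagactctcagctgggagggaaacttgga

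The windows of Cyp3a16 and Cyp3a44 were identical at 284 of 304 aligned columns (93.4%), those of Cyp3a11 and Cyp3a16 at 75.2%, and Cyp3a11 and Cyp3a44 at 71.8%. Every pair with Cyp3a13 or Cyp3a25 lay between 52.7% and 58.0%. Cyp3a11 alone held the direct repeat, the form in which PXR and CAR are known to bind, which 0.125% of all 32851 RefSeq mouse windows hold on either strand. An AGGTCA stood in the windows of Cyp3a11, Cyp3a25 and Cyp3a44, against 16.3% of all windows, and in the window of Cyp3a16 it was not found. The Cyp3a13 window held none of the 3 motifs. A match describes the letters only.

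Cyp3a16 is an enzyme of fetal and young liver that declines as mice mature. It read 8.29, 7.44 and 6.67 in KO pools 1 to 3 and 8.61, 8.36 and 8.60 in WT pools 1 to 3. The KO pools were spread widely, with pool 3 lowest and pool 1 only just under the lowest WT pool, while the WT pools lay close together. The means were 7.46 ± 0.81 in KO and 8.52 ± 0.14 in WT (SD, n = 3 each), a difference of -1.06 with an SE of 0.251 and a limma adjusted p of 0.0174. The difference was -0.66 without KO pool 3 and -1.47 without KO pool 1, and without WT pool 1 it was -1.01 with an adjusted p of 0.0563. Cyp3a44, its near copy, read 6.31, 6.23 and 5.93 in KO and 6.36, 6.18 and 6.11 in WT. These overlap, with a difference of -0.06, a 95% interval of -0.34 to 0.23 and an adjusted p of 0.872. Within pools, the log2 ratio of Cyp3a16 to Cyp3a44 moved by -1.0 between KO and WT, with an exact permutation p of 0.1 for a pair chosen after its values were seen. Whether either probe set also binds transcripts of the other gene was not tested.

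Cyp3a13 and Cyp3a25 rose. Cyp3a13, a drug-metabolising enzyme of liver and intestine, read 11.43, 11.37 and 11.09 in KO and 10.85, 10.87 and 10.86 in WT. All KO pools stood above the closely grouped WT pools, and the difference was 0.44 (1.36-fold) with an SE of 0.077 and an adjusted p of 0.00188. Cyp3a25, one of the bright hepatic Cyp3a genes, read 13.37, 13.34 and 13.33 in KO and 13.08, 13.11 and 13.09 in WT. Both groups were tight and separate. The step was 0.25 (1.19-fold, SE 0.0396), and its adjusted p of 0.000669 was the smallest of the 42 genes. Both genes kept their calls without any 1 pool.

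Cyp3a11, the main inducible Cyp3a of mouse liver and the usual readout of PXR, was not called. It read 14.04, 14.00 and 13.99 in KO and 13.87, 13.92 and 13.90 in WT. The pools did not overlap and KO was higher, by 0.11 (1.08-fold, SE 0.0355), but the adjusted p was 0.0731. The 95% interval of 0.04 to 0.19 does not reach the 1.19-fold step seen for Cyp3a25.

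Cyp4a and Cyp4f genes give enzymes that hydroxylate fatty acids and eicosanoids at the end of the chain. Across family 4, 2 of 8 tested genes were higher in KO and 0 were lower, and the lower count at an unadjusted p below 0.05 was also 0. Cyp4a14, a fatty acid hydroxylase and a classical target of PPAR alpha, read 12.92, 12.56 and 12.60 in KO and 12.35, 12.35 and 12.09 in WT. KO pool 1 was highest and WT pool 3 lowest, and the groups were separate. The means of 12.70 ± 0.20 in KO and 12.26 ± 0.15 in WT (SD, n = 3 each) differ by 0.43 (1.35-fold), with an SE of 0.0828 and a limma adjusted p of 0.00382. Cyp4a31, also on chromosome 4, read 10.92, 10.34 and 10.60 in KO and 10.43, 10.58 and 10.25 in WT. KO pool 1 was again highest but the groups overlapped, with a difference of 0.20 and a 95% interval of -0.04 to 0.44. Cyp4a12a, a fatty acid hydroxylase of adult male liver, was called Present on 0 of 6 arrays and was not tested.

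Cyp4f15 was the other riser of the family. It read 10.53, 10.56 and 10.52 in KO and 10.13, 10.08 and 10.24 in WT, a difference of 0.39 (1.31-fold, SE 0.0694, adjusted p 0.00232). The KO pools were nearly equal, and the gene kept its call without any 1 pool. Cyp4f14, a leukotriene B4 hydroxylase of liver that lies with it on chromosome 17, read 10.24, 10.57 and 10.61 in KO and 10.76, 10.55 and 10.56 in WT. These pools overlap, the difference was -0.15 and its 95% interval of -0.34 to 0.04 lies below the estimate for Cyp4f15. The difference between these 2 genes was not tested. Cyp4f13 differed by 0.11 (adjusted p 0.641) and Cyp4f16 by -0.22 (adjusted p 0.393).

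Cyp4v3, which encodes a hydroxylase of medium-chain fatty acids, read 11.39, 11.52 and 11.41 in KO and 11.20, 11.30 and 11.28 in WT. Its KO pools were all above its WT pools by a mean of 0.18, but the adjusted p was 0.101, and 0.0436 without KO pool 3. Cyp4b1, an enzyme best known from lung, read 8.49, 8.34 and 8.29 in KO and 8.41, 8.60 and 8.52 in WT, which overlap (difference -0.14, adjusted p 0.498).

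Cyp2c enzymes hydroxylate drugs and steroids and turn arachidonic acid into epoxides. Of 9 tested Cyp2c genes on chromosome 19, 1 was higher and 2 were lower in KO, the differences ran between -0.31 and 0.33, and their median was 0.01. Cyp2c23, known in mouse and rat as an arachidonic acid epoxygenase, read 10.75, 10.85 and 10.79 in KO and 11.11, 11.11 and 11.10 in WT. The WT pools were nearly equal and the highest KO pool was 0.25 below the lowest of them. The difference was -0.31 (0.806-fold) with an SE of 0.0606 and an adjusted p of 0.00438, and the call held without any 1 pool. Cyp2c68 read 12.94, 12.79 and 12.73 in KO and 13.09, 13.05 and 13.02 in WT. KO pool 1 came nearest to WT, and the difference was -0.23 (0.852-fold, SE 0.0516, adjusted p 0.0117). Without WT pool 1 it was -0.21 with an adjusted p of 0.0628. Near copies in this cluster can share probes too, and how far the opposite calls of Cyp2c genes are independent readings was not tested.

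Cyp2c29, an abundant pericentral epoxygenase induced by CAR ligands, went the other way. It read 12.86, 12.85 and 12.75 in KO and 12.65, 12.69 and 12.62 in WT, with all KO pools higher. Its difference of 0.17 (1.12-fold, SE 0.0467) was the smallest step called, with an adjusted p of 0.047. The adjusted p was 0.148, 0.0768 and 0.151 without WT pool 1, 2 or 3, 0.155 and 0.19 without KO pool 1 or 2, and 0.135 when each array was centred on its median. Further along the cluster, Cyp2c37, Cyp2c50 and Cyp2c54 were not called. Cyp2c37 differed by 0.014 (95% interval -0.09 to 0.12) and Cyp2c50 by 0.015 (-0.09 to 0.12). Steps of 1.1-fold lie outside both intervals, but these rest on the intensity trend, and intervals without it were not computed. Cyp2c54 read 11.12, 11.34 and 11.76 in KO and 11.29, 11.40 and 11.02 in WT, with a wider interval of -0.09 to 0.42.

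Cyp2c70, the enzyme that forms muricholic acids in mice, was lower in every KO pool by a mean of 0.12 without passing the test (adjusted p 0.169). Cyp2c38 read 5.07, 5.88 and 6.30 in KO and 5.53, 5.46 and 5.26 in WT. It was a dim probe set whose difference of 0.33 was not called (adjusted p 0.505), and without KO pool 1 it was 0.67 with an adjusted p of 0.0246. Cyp2c55, a CAR-responsive gene of colon and liver, varied between pools rather than with genotype. It read 9.79, 9.78 and 8.97 in KO and 9.40, 9.33 and 10.15 in WT.

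The Cyp2b genes, the classical targets of CAR, lie together on chromosome 7, and 1 of 3 tested was called. Cyp2b13, a gene higher in female than in male adult liver, read 9.87, 9.70 and 9.65 in KO and 8.90, 9.24 and 9.57 in WT. The KO pools were tight and the WT pools were not, and WT pool 3 came within 0.08 of the lowest KO pool. The difference was 0.50 (1.42-fold) with an SE of 0.125 and an adjusted p of 0.0238. Without WT pool 1 it was 0.33 (adjusted p 0.138), and without KO pool 1 it was 0.44 (adjusted p 0.0773). Cyp2b9, another gene higher in females, read 11.86, 11.76 and 11.65 in KO and 11.52, 11.63 and 11.64 in WT. KO was higher by 0.16 with no call (adjusted p 0.18), and by 0.21 with a call without KO pool 3 (adjusted p 0.0281).

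Cyp2b10, the gene most often used to measure CAR activity, read 7.97, 7.82 and 7.05 in KO and 6.57, 6.92 and 8.07 in WT. WT pool 3 was the highest of the 6 and WT pool 1 the lowest, so the genotypes overlapped fully. The difference of 0.43 was the largest of those not called, with a 95% interval of -0.17 to 1.02 and an adjusted p of 0.476. Without WT pool 3 it was 0.87 with an adjusted p of 0.0174. A second probe set of Cyp2b10 had the same 3 pools on top, with 7.49, 7.42 and 6.60 in KO and 6.11, 6.73 and 7.62 in WT.

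Cyp2b10 had the widest spread within genotype of the 42 genes (0.656 log2 units), followed by Cyp3a16 (0.582), Cyp2c55 (0.463), Cyp2c38 (0.455) and Cyp1a1 (0.372). The median was 0.0881 for P450 genes and 0.141 for all tested probe sets. Cyp2b10 and Cyp2c55 shared their pattern: WT pool 3 was highest, KO pools 1 and 2 came next, and the remaining 3 pools were lower. Because many of these genes differ between adult male and female liver, Xist, expressed in females, and the Y-linked gene Eif2s3y were read in the pools. Xist was 11.14, 10.03 and 9.04 in KO and 11.04, 9.14 and 11.01 in WT. Eif2s3y was 1.16, 8.55 and 8.55 in KO and 7.58, 8.69 and 6.97 in WT. Both genes thus differed between pools within genotype, and Eif2s3y was near background in KO pool 1 while the other 5 pools held both signals. Cyp3a16 followed the order of Xist among the KO pools and, within a narrower range of 8.36 to 8.61, among the WT pools. With Xist as a covariate the difference of Cyp3a16 was -0.91 (adjusted p 0.00218). All 12 calls remained with that covariate, and Cyp2d26 and Cyp2j9 were added.

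**Figure D3:**
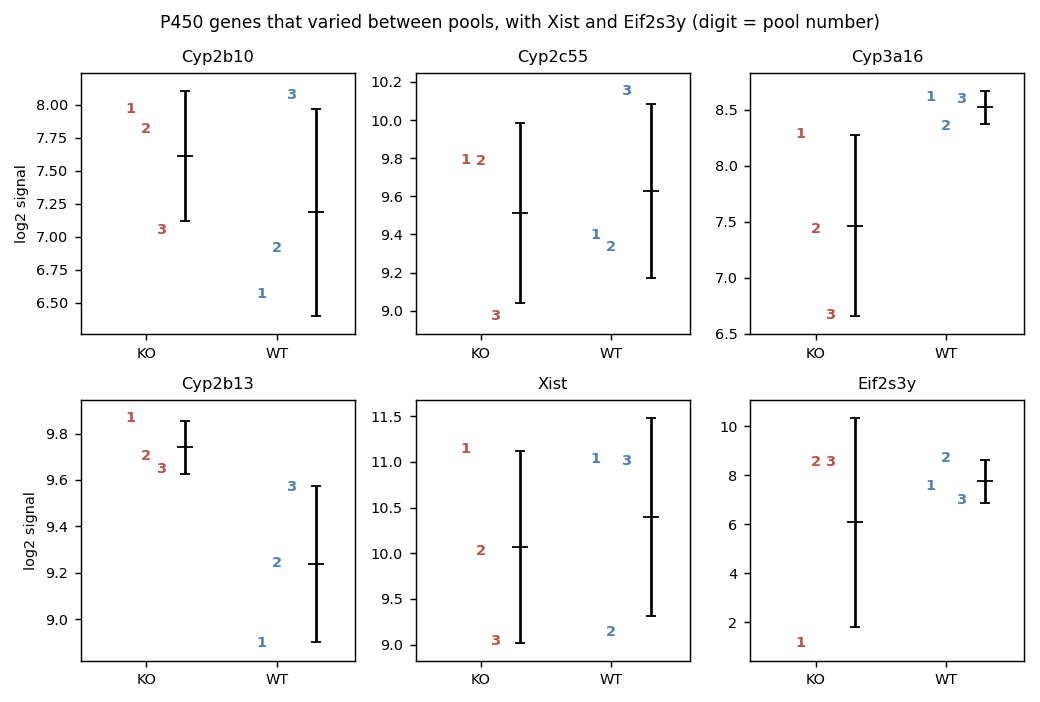
Log2 signal (y axis, a scale of its own per panel) of Cyp2b10, Cyp2c55, Cyp3a16 and Cyp2b13 beside Xist and the Y-linked Eif2s3y, in KO (red, left) and WT pools (blue, right); digits are pool numbers and black bars are mean and SD of 3 pools. WT pool 3 leads for Cyp2b10 and Cyp2c55, KO pool 1 is the highest KO pool and KO pool 3 the lowest for both Cyp3a16 and Xist, and Eif2s3y is near background in KO pool 1 alone (1.16).

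Of the 8 Cyp2d genes on chromosome 15, those tested leaned one way. All 6 tested were higher on average in KO, with a median of 0.21, and 54.4% of all tested probe sets were above zero. Only Cyp2d22 was called. This gene, at times set beside human CYP2D6, read 10.37, 10.41 and 10.33 in KO and 10.09, 10.10 and 10.18 in WT, a separate pair of groups. Its difference was 0.25 (1.19-fold, SE 0.0683, adjusted p 0.0434). The call was lost without WT pool 1, 2 or 3 (adjusted p 0.204, 0.171 and 0.0822) and without KO pool 1 or 2 (0.0853 and 0.205). A second probe set of Cyp2d22 gave 0.23 with an adjusted p of 0.145.

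Cyp2d26, Cyp2d40 and Cyp2d13, which RefSeq lists as a transcribed pseudogene, had all KO pools above all WT pools without a call. Cyp2d26 differed by 0.17 (adjusted p 0.0698), Cyp2d40 by 0.28 (0.129) and Cyp2d13 by 0.23 (0.134), and without KO pool 3 the first 2 reached 0.0107 and 0.0445. Cyp2d9, a steroid 16 alpha-hydroxylase of male liver, read 10.75, 11.05 and 10.93 in KO and 10.69, 10.90 and 10.57 in WT, with an overlap and a difference of 0.19 (adjusted p 0.264). Cyp2d10 differed by 0.03 (adjusted p 0.814). Near copies in this cluster can share probes, and how far the readings are independent was not tested.

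Of 49 promoter windows found in RefSeq for 43 of the 56 genes, 3 held the direct repeat AGGNCANAGGNCA, a form bound by PPAR alpha and HNF4 alpha, and all 3 lay in the Cyp2d cluster. It stood in 0.381% of all windows, searched on both strands. For Cyp2d22, the only called Cyp2d gene, no window was found, so whether it bears the repeat is not known here. The 41-base stretches around it (GRCm38.p6, each 5' to 3' on the strand of its gene, with the repeat in capitals) are shown because their bearers, Cyp2d10, Cyp2d9 and Cyp2d40, share the element and had no called change.
Cyp2d10, minus strand, chr15:82407225-82407265: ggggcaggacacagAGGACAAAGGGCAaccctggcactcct
Cyp2d9, plus strand, chr15:82452309-82452349: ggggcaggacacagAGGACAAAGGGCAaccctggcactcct
Cyp2d40, minus strand, chr15:82764213-82764253: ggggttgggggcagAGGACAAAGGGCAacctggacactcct

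The stretches shown share the same 13 letters, which begin at -57, -54 and -117 from the start of Cyp2d10, Cyp2d9 and Cyp2d40. The Cyp2d40 window held a second match, with other letters, on the opposite strand at 32 bases past the start. Cyp2d22, Cyp4a14 and Cyp4a31 were among the 13 genes for which no window was found, so their start regions were not searched. The letters CAAAG, the core of the HNF4 motif, were in 43 of the 49 windows (87.8%) against 53.9% of all windows. TATAAA was in 18 of the 49 (36.7%) against 13.6%. Some genes, such as Cyp4f14, have several overlapping windows, so the 49 are not independent. Counted by gene, CAAAG was found in 37 and TATAAA in 18 of the 43.

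Of the single-gene subfamilies of family 2, Cyp2f2 and Cyp2r1 fell. Cyp2f2, the periportal enzyme that oxidises naphthalene, read 12.93, 12.98 and 13.05 in KO and 13.17, 13.24 and 13.11 in WT. The groups were close but separate, with a difference of -0.19 (0.878-fold, SE 0.0472, adjusted p 0.0255). The adjusted p was 0.0872 and 0.126 without WT pool 1 or 2, 0.102 and 0.0786 without KO pool 1 or 2, and 0.176 after median centring. Cyp2r1, the main vitamin D 25-hydroxylase of liver, read 7.56, 7.36 and 7.32 in KO and 7.84, 7.76 and 7.77 in WT. All KO pools were lower, by a mean of 0.37 (0.772-fold, SE 0.103, adjusted p 0.0414). This call was lost without WT pool 1, 2 or 3 (adjusted p 0.201, 0.111 and 0.126) and without KO pool 2 (0.176).

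Cyp2e1, the ethanol- and acetone-oxidising enzyme that is one of the brightest P450 signals of the pericentral zone, read 14.00, 14.02 and 14.10 in KO and 14.05, 14.05 and 14.02 in WT. The pools were intermixed, and the difference of 0.0026 had a 95% interval of -0.08 to 0.08. Cyp2a12, a steroid hydroxylase, read 13.09, 13.07 and 13.12 in KO and 12.96, 13.03 and 12.98 in WT. Its KO pools were all higher by a mean of 0.10, without a call (adjusted p 0.202). Cyp2g1, known from olfactory tissue, differed by 0.011 (95% interval -0.19 to 0.21).

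Cyp2j enzymes make epoxides of arachidonic acid, and 0 of 3 tested were called by limma, with 1 at an unadjusted p below 0.05. Cyp2j5, the main Cyp2j of liver and kidney, read 11.11, 11.13 and 11.12 in KO and 11.15, 11.12 and 11.13 in WT. These overlap, with a difference of -0.016 and an interval of -0.14 to 0.11. Cyp2j9, the exception at p, read 7.14, 7.00 and 6.79 in KO and 6.52, 6.55 and 6.66 in WT. Every KO pool was higher, by a mean of 0.40 (SE 0.119), and the adjusted p was 0.0583, or 0.00763 without KO pool 3. Cyp2j6 differed by 0.14 (adjusted p 0.625). Cyp2u1, a long-chain fatty acid hydroxylase, read 7.72, 7.71 and 8.43 in KO and 7.91, 8.16 and 8.07 in WT. KO pool 3 was the highest of the 6, and without it the difference of -0.09 became -0.33 with an adjusted p of 0.0302.

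The Cyp1 genes, the classical targets of the Ah receptor, held no call: 0 of 2 tested by limma, and 0 at an unadjusted p below 0.05. Cyp1a2, the constitutive pericentral member, read 11.34, 11.42 and 11.45 in KO and 11.26, 11.20 and 11.38 in WT. The top WT pool fell among the KO pools, and the difference of 0.12 had a 95% interval of -0.01 to 0.25. Cyp1a1, the strongly inducible member, read 4.29, 4.63 and 5.02 in KO and 5.00, 4.69 and 4.25 in WT. It was dim and fully overlapping, with a difference of 0.0032 and an interval of -0.51 to 0.52. Both genes held a TATAAA in their promoter windows, and GCGTG, the core of the Ah receptor's response element, was found in that of Cyp1a1. GCGTG stood in 12 of the 49 P450 windows (24.5%) and in 32.4% of all windows.

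The remaining 14 genes did not pass the detection filter, and 10 of them were called Present on 0 arrays. They were Cyp1b1, Cyp2b19, Cyp2c39, Cyp2c65, Cyp2d12, Cyp2d34, Cyp2j11, Cyp2j13, Cyp2s1, Cyp4a12a, Cyp4f18, Cyp4f39, Cyp4x1 and the transcribed pseudogene Cyp4f41-ps. Cyp1b1 read 4.81, 5.30 and 5.13 in KO and 5.01, 4.89 and 5.14 in WT, which overlap. Cyp2s1, an extrahepatic enzyme, read 4.52, 4.63 and 4.89 in KO and 4.88, 4.84 and 4.73 in WT, also with overlap. Cyp4x1 read -0.41, 3.54 and 1.99 in KO and 4.07, 0.92 and 3.95 in WT, signals so near background that their log2 values scatter over several units. When every probe set was tested regardless of detection, 0 of the 14 were called by limma, with a smallest adjusted p of 0.515 and 0 at an unadjusted p below 0.05.

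Among the P450 genes 7 had a second tested probe set, and 0 of these second probe sets were called by limma, while 3 had an unadjusted p below 0.05. Cyp2d22, above, was the only called gene with one. In the authors' deposited table of their own comparison 0 of the 56 genes had a corrected p below 0.05, against 22 of all 45101 probe sets. An uncorrected p below 0.05 was given for 17 of the 56 genes, and the share over all probe sets was not counted. The smallest corrected p of the 56 genes in the authors' comparison was that of Cyp3a25 at 0.0912, with an absolute fold of 1.19.

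Genes that control P450 expression were read from a list of 24 regulators. Of 21 tested, 5 were higher in KO and 0 were lower by limma, against 10 and 2 at an unadjusted p below 0.05, with a median difference of 0.14. Of all tested probe sets, 2.68% were called higher and 3.0% lower. The called share was 14.0% of those with a mean log2 signal of at least 10. How many of all probe sets had an unadjusted p below 0.05 was not counted. The receptor genes of CAR, PXR and PPAR alpha were all among the risers, while Ahr was not called. All 5 calls were lost without the intensity trend, with limma adjusted p between 0.0535 (Nr1i3) and 0.171 (Nr1h4). Nr1i3, which encodes CAR, read 10.39, 10.28 and 10.33 in KO and 9.83, 9.93 and 9.93 in WT, a separate step of 0.44 (SE 0.0714, adjusted p 0.00096). Nr1i2, which encodes PXR, read 8.47, 8.49 and 8.43 in KO and 7.80, 8.04 and 8.17 in WT. KO was higher by 0.46 (SE 0.103, adjusted p 0.0122), with more spread among the WT pools, and its adjusted p was 0.111 without WT pool 1 and 0.0527 without KO pool 2. Ppara read 10.48, 10.57 and 10.56 in KO and 10.10, 10.32 and 10.04 in WT, also separate, by 0.39 (SE 0.0787, adjusted p 0.006). Dbp, a circadian transcription factor that drives several P450 genes, differed by 0.52 (adjusted p 0.0035). Nr1h4, the bile acid receptor FXR, differed by 0.30 (adjusted p 0.0323), a call lost without WT pool 1, 2 or 3 (adjusted p 0.192, 0.0553 and 0.107) and without KO pool 1 or 2 (0.121 and 0.083). Ahr differed by -0.16 with a 95% interval of -0.36 to 0.03.

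Targets of these receptors outside the P450 families were counted next, beside 2.68% of all tested probe sets called higher and 3.0% called lower. Of 14 tested targets of PPAR alpha, 9 were higher and 0 lower by limma, against 10 and 1 at an unadjusted p below 0.05, with a median of 0.26. The acyl-CoA thioesterase genes Acot3, Acot1 and Acot4 had the largest differences of these at 1.40, 1.30 and 0.91, the carnitine-acylcarnitine carrier Slc25a20 differed by 0.38 (adjusted p 0.00129) and the peroxisome gene Pex11a by 0.46 (adjusted p 0.004). Without the intensity trend Slc25a20 and Pex11a were not called (limma adjusted p 0.0822 and 0.0731), nor were Acadm, Cpt1a, Acaa1b and Ehhadh. Of 16 tested targets of CAR and PXR, 3 were higher and 0 lower by limma, against 5 and 1 at an unadjusted p below 0.05, with a median of 0.14. These were the glutathione transferase Gsta2 at 1.17 (adjusted p 5.72e-05), the sulfotransferase Sult1d1 at 0.43 (0.000785) and the aldehyde dehydrogenase Aldh1a1 at 0.28 (0.00168). Sult1d1 and Aldh1a1 lost their calls without the trend (limma adjusted p 0.0757 and 0.148). Of 4 tested targets of the Ah receptor 0 were called by limma, with a median of 0.13. The quinone reductase Nqo1 differed by 0.38 (unadjusted p 0.00757, adjusted p 0.0965). Lrat, which was also on the list of stellate cell markers, differed by -0.27 (adjusted p 0.174).

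P450 enzymes need heme, an electron supply and, for epoxides, enzymes that open them. Counts for these lists stand beside 2.68% of all tested probe sets called higher and 3.0% lower. Among probe sets with a mean log2 signal of at least 10, 14.0% were called. Of 12 tested genes of heme synthesis and breakdown, 2 were higher in KO and 0 lower by limma, against 4 and 1 at an unadjusted p below 0.05. Alas1, the rate-limiting enzyme of heme synthesis in liver, read 12.50, 12.86 and 12.93 in KO and 12.29, 12.13 and 12.51 in WT. KO pool 1 fell just under WT pool 3, so the groups overlapped, and the difference was 0.45 (SE 0.0954, adjusted p 0.00767, and 0.0755 after median centring). Cpox, a later step of the same pathway, differed by 0.32 (adjusted p 0.0118) with separate groups, and its adjusted p was 0.0588 without WT pool 1 and 0.0736 without WT pool 3. Both genes lost their calls without the intensity trend (limma adjusted p 0.204 for Alas1 and 0.171 for Cpox). Of 4 tested redox partners 2 were lower and 0 higher by limma, and 1 was higher at an unadjusted p below 0.05. Cyb5r3, the reductase of cytochrome b5, read 10.95, 11.08 and 10.93 in KO and 11.40, 11.30 and 11.38 in WT, a difference of -0.37 (SE 0.0629, adjusted p 0.00132). Cyb5b, the mitochondrial outer membrane form of cytochrome b5, differed by -0.34 (adjusted p 0.00179), while the microsomal form Cyb5a differed by 0.11 (adjusted p 0.182). Without the trend Cyb5r3 and Cyb5b were not called (limma adjusted p 0.091 and 0.097). Por, the P450 reductase gene, was not analysed here.

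Of 4 tested epoxide hydrolases and eicosanoid enzymes, 2 were higher and 0 lower by limma, as they were at an unadjusted p below 0.05. Ephx1, the microsomal hydrolase that acts on epoxides of xenobiotics, read 12.09, 11.80 and 11.95 in KO and 11.44, 11.46 and 11.54 in WT, a step of 0.47 (SE 0.0672, adjusted p 0.000288). Ephx2, the soluble hydrolase of fatty acid epoxides, read 12.60, 12.44 and 12.46 in KO and 12.05, 12.24 and 12.12 in WT. It too was separate, and higher by 0.36 (SE 0.0589, adjusted p 0.000946). Neither hydrolase was called without the intensity trend (limma adjusted p 0.0752 for Ephx1 and 0.118 for Ephx2).

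**Figure D4:**
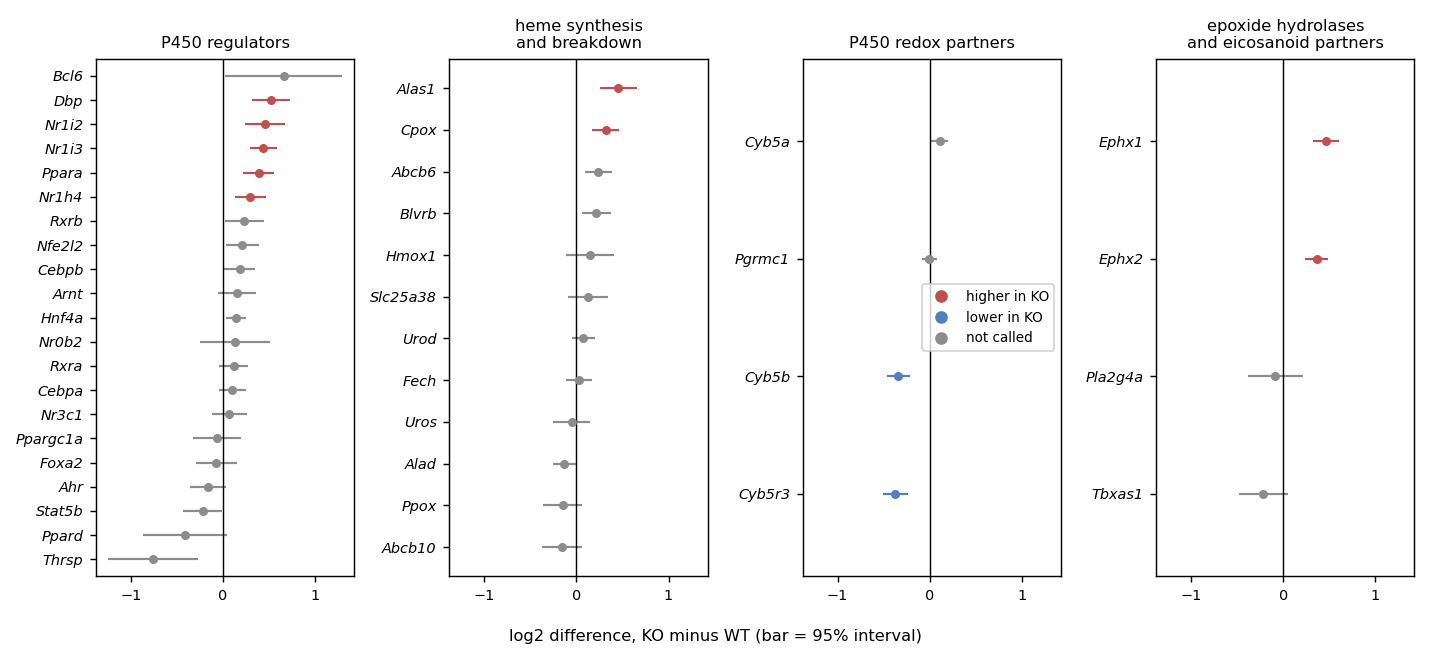
Log2 difference, KO minus WT (x axis), with 95% intervals for tested genes of 4 lists: P450 regulators, heme synthesis and breakdown, P450 redox partners, and epoxide hydrolases with eicosanoid partners; red is called higher in KO, blue called lower and grey not called. The regulators Dbp, Nr1i2, Nr1i3, Ppara and Nr1h4, the heme genes Alas1 and Cpox and both hydrolases lie to the right of zero, and Cyb5b and Cyb5r3 to the left.

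P450 families outside 1 to 4 act on sterols and steroid hormones. Among 9 tested genes, 2 were higher and 2 lower, against 2.68% and 3.0% of all tested probe sets. Cyp51, the lanosterol demethylase of cholesterol synthesis, read 7.26, 7.67 and 6.76 in KO and 11.08, 10.60 and 10.85 in WT. Its difference of -3.62 (SE 0.17, adjusted p 1.71e-10) exceeded in size that of every tested gene of families 1 to 4. Cyp8b1, the sterol 12 alpha-hydroxylase, differed by -0.51 (adjusted p 0.0325), and its adjusted p was 0.18 without WT pool 1, 0.05 without WT pool 2, 0.105 without KO pool 2 and 0.0851 without KO pool 3. Cyp39a1, an oxysterol hydroxylase, differed by 0.51 (adjusted p 0.00107). Cyp17a1, of steroid hormone synthesis, differed by 0.53 (adjusted p 0.0471), and its adjusted p was 0.127 and 0.166 without WT pool 1 or 2 and 0.182 without KO pool 1. Without the intensity trend Cyp8b1, Cyp39a1 and Cyp17a1 were not called (limma adjusted p 0.255, 0.0834 and 0.261).

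The P450 genes of families 1 to 4 were also grouped by their known bias in adult mouse liver. Called shares of all tested probe sets were 2.68% higher and 3.0% lower. At a mean log2 signal of at least 10 the share was 14.0% in either direction. Of 6 tested genes known to be higher in females, Cyp2b13 and Cyp4a14 were higher, Cyp3a16 was lower and the others were not called, with a median of 0.29. Of 2 tested genes known to be higher in males, Cyp2d9 and Cyp2u1, 0 were called by limma, with 1 at an unadjusted p below 0.05. Of 8 tested pericentral genes, Cyp2c29 and Cyp4a14 were higher and 0 were lower by limma, nor was any lower at an unadjusted p below 0.05, with a median of 0.12, and the 1 listed periportal gene, Cyp2f2, was lower. Of 14 listed main hepatic P450 genes, Cyp2a5 and Cyp4a10 had no probe set of a single symbol and were not measured. Among the 12 tested, 4 were higher and 1 was lower.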

How the data were processed

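Liver RNA of 3 KO and 3 WT pools of 5 mice each was labelled as biotinylated cRNA and hybridised to Affymetrix arrays, per the labels' protocols. The submitters' processing notes name MAS5, with version and scaling not stated. A deposited workbook holds log2 signals and detection calls of 45101 probe sets per array, with detection p-values, and the authors' own comparison as p-values and absolute fold changes without direction; how these were made is not stated. A deposited series matrix holds the same log2 values, with a largest difference of 4.91e-07.

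The log2 values were used as deposited. Without the 64 controls, the 22482 probe sets Present on 3 or more of 6 arrays were fitted with limma 3.58.1 in R 4.3.3 (lmFit, eBayes with intensity trend), with two-sided tests and Benjamini-Hochberg adjustment over all of them. The members, the gene lists and the Xist covariate were chosen with earlier results of these data known. Values per pool are given for genes called changed, for a list of main hepatic P450s and, in subfamilies with neither, for the gene with the smallest p. Of other lists, up to 5 called genes are named, or the 2 with the smallest p. Genes outside this rule that have values per pool were chosen after their values were seen. Arrays were simulated from these pools with 200 of 22482 probe sets changed. On them the fit recovered 6.4% of 1.25-fold, 42.8% of 1.5-fold and 76.4% of 2-fold changes. These rates are over probe sets of any brightness. They were not computed for the P450 genes, whose pools varied less (median SD within genotype 0.0881 against 0.141). A gene not called may still have changed by a small step. The number of arrays limits the precision, and the median 95% interval of a tested P450 gene spans 0.174 log2 units to each side. All 95% intervals come from the fit with the intensity trend.

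Gene symbols came from the platform annotation, in which 34958 probe sets have 1 symbol, 932 several and 9211 none. All 56 symbols were found in RefSeq by gene ID, and promoter windows and their coordinates are RefSeq's for GRCm38.p6, not the authors'. Signals of different probe sets were not compared as levels. Pool numbers do not pair KO with WT: deviations of same-numbered pools correlated at -0.0298, -0.00776 and -0.0815 over probe sets. Alternatives covered the detection filter, normalization, a pseudocount of 16, the variance trend, pool number as a block, Xist as a covariate, the choice of probe set and leaving out each pool.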

Additional observations from a re-analysis of the deposited data

Results flagged for a closer look

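The 4 probe sets that list several P450 genes of families 1 to 4 were outside the comparisons above, and 3 of them were higher in KO with separate pools. Probe set 1422230_s_at read 13.09, 12.99 and 13.19 in KO and 12.34, 12.42 and 12.61 in WT, a difference of 0.64 (1.55-fold, limma adjusted p 5.37e-06), which exceeds every rise among the 42 tested genes. Probe set 1419704_at read 11.41, 11.24 and 10.99 in KO and 10.85, 10.76 and 10.87 in WT, a difference of 0.38 with an adjusted p of 0.0107. Probe set 1424853_s_at read 13.56, 13.22 and 13.23 in KO and 13.10, 13.11 and 13.04 in WT, a difference of 0.25 with an adjusted p of 0.0412. Probe set 1430172_a_at differed by -0.12 and was not called (adjusted p 0.79). Each lists more than 1 gene, and which of its genes gave the signal was not tested.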

How the results depend on the processing

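The count of P450 genes called was 12 of 42. It was 0 without the intensity trend and 6 without the detection filter (4 higher, 2 lower), and between 5 and 18 when 1 pool was left out. It was 11 to 14 under quantile normalization, median centring, a pseudocount of 16, Present calls on all arrays, the Xist covariate, the series matrix values and other choices of probe set. The count over all probe sets, 1277 at first, was 378 without the trend and 639 to 3010 with 1 pool left out. Cyp2c23, Cyp3a13, Cyp3a25, Cyp4a14 and Cyp4f15 kept their calls in all 17 settings except the fit without the trend. No called gene reversed direction in these settings. With pool number as a replicate block, which the labels do not give as a pairing, 1370 probe sets and 12 P450 genes were called: Cyp2d22 lost its call (adjusted p 0.0726) and Cyp2d26 gained one (adjusted p 0.0419). Detection limits the rest: 14 genes were not called Present on enough arrays to be tested.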
